A study of Homo sapiens with 8 samples.

Results

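The S100 genes described here are 10 members of a family of small calcium-binding proteins: S100A1, S100A2, S100A3, S100A4, S100A6, S100A10, S100A14, S100A16, S100B and S100P. Each was represented by 1 probe set whose annotation named no other gene, so that the choice of the probe set with the highest mean left nothing to choose, and the 10 genes stand among 18417 genes with a probe set of their own. RNA came from 4 established human tumour lines, COLO741, SW620, HT29 and HCT116, all grown in RPMI medium with serum and antibiotics and given no other agent. Cells of each line were separated by flow cytometry with an antibody against ABCB5, a transporter of the ATP-binding cassette class, and each line gave 1 ABCB5-positive and 1 ABCB5-negative array, 4 of each. The labels describe COLO741 and HCT116 as colon carcinoma, HT29 as colon adenocarcinoma and SW620 as a lymph node metastasis. The overall design of the series lists SW480 where the samples are labelled SW620, and the sample labels were followed. Nothing in the labels ties the arrays to separate cultures, so p-values measure the spread between these arrays, part of which may be technical.

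S100 proteins are built from a pair of calcium-binding loops called EF hands and work mostly as dimers. On binding calcium they expose a surface that grips partner proteins such as annexins, myosins and p53, and several are also released from cells and bind receptors such as AGER, the receptor for advanced glycation end products. Most of their genes sit together on chromosome 1, and individual members are switched on in different tissues: S100B in glia and melanocytes, S100A1 in muscle, and S100P, S100A14 and S100A16 in epithelia, among other places.

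Each array gave 1 log2 value for a probe set, and a difference of 1 on this scale is a factor of 2. Levels of different genes are not set against each other, because probes differ in brightness. As a mark of dimness the 95th percentile of 360 olfactory receptor probe sets, a family used in the nose, was taken, at 7.50. Of all 18417 genes, 13041 had a mean over the 8 arrays at or above 7.50, so most genes pass this mark. COLO741 went against its label in the marker genes: all 13 melanocyte genes were above that mark on both of its arrays. PMEL, a pigment granule protein, had a line mean of 14.44 there, TYRP1 of 13.99 and MLANA of 13.36, while TRPM1 read only 7.53 on the positive array. In the other lines 2 to 6 of the 13 were above the mark on both arrays. MC1R and SOX10 were above it on all 8 arrays, and MC1R had a higher line mean in SW620, at 8.74, than in COLO741, at 8.29. Of 17 colon epithelial genes, 7 were above the mark on both COLO741 arrays, against 12 in SW620, 15 in HT29 and 10 in HCT116, and EPCAM, an epithelial adhesion protein, averaged 5.90 in COLO741 and 13.34 to 13.74 in the other lines. ABCB5 itself was bright only in COLO741, where it read 9.42 on the array labelled negative and 8.14 on the array labelled positive, and lay below the mark on all arrays of the other 3 lines.

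The first question was how the S100 genes differ between the lines. All 10 differed between the 4 lines by limma's F test at an adjusted p of 0.05, where 67.2 percent of all 16910 genes tested did so. The count was 8 without the HT29 ABCB5-negative array, where S100A2 (adjusted p = 0.0561) and S100A10 (adjusted p = 0.0853) were lost, and 9 by ordinary least squares, where S100A2 was lost (adjusted p = 0.121). The range of the 4 line means ran from 0.55 for S100A10 to 6.27 for S100B, with a median of 2.54 beside 0.64 for all genes. The 10 genes were chosen with earlier results of these data known, so their excess over all genes is a description only. Of the other 7 S100 genes tested, 4 differed between the lines, with a median range of 0.55. Against the mean of SW620, HT29 and HCT116, COLO741 differed in all 10, where 49.7 percent of all genes did. It had 2 of them higher (S100B and S100A1), where 23.7 percent of all genes were higher, and 8 lower, where 26 percent were. The 8 were lower than a mean of unlike lines. Only S100A4, S100A6 and S100A16 were called lower than each of SW620, HT29 and HCT116, and S100A3 was 0.40 above HT29, which was not called. The median size of the difference from the mean of the other lines was 1.87 for the S100 genes and 0.27 for all genes. This split of the lines was also chosen with earlier results of these data known, so the excess is again a description only. Among the other 7 S100 genes tested, 2 differed in this comparison. Both arrays of a line stand as its samples in these tests, and the fit took out the mean difference between populations. The error is what remained of the difference between the sorted populations of a line, and not the spread between cultures. In bulk RNA, fewer cells with a transcript and less transcript per cell cannot be told apart.

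**Figure D1:**
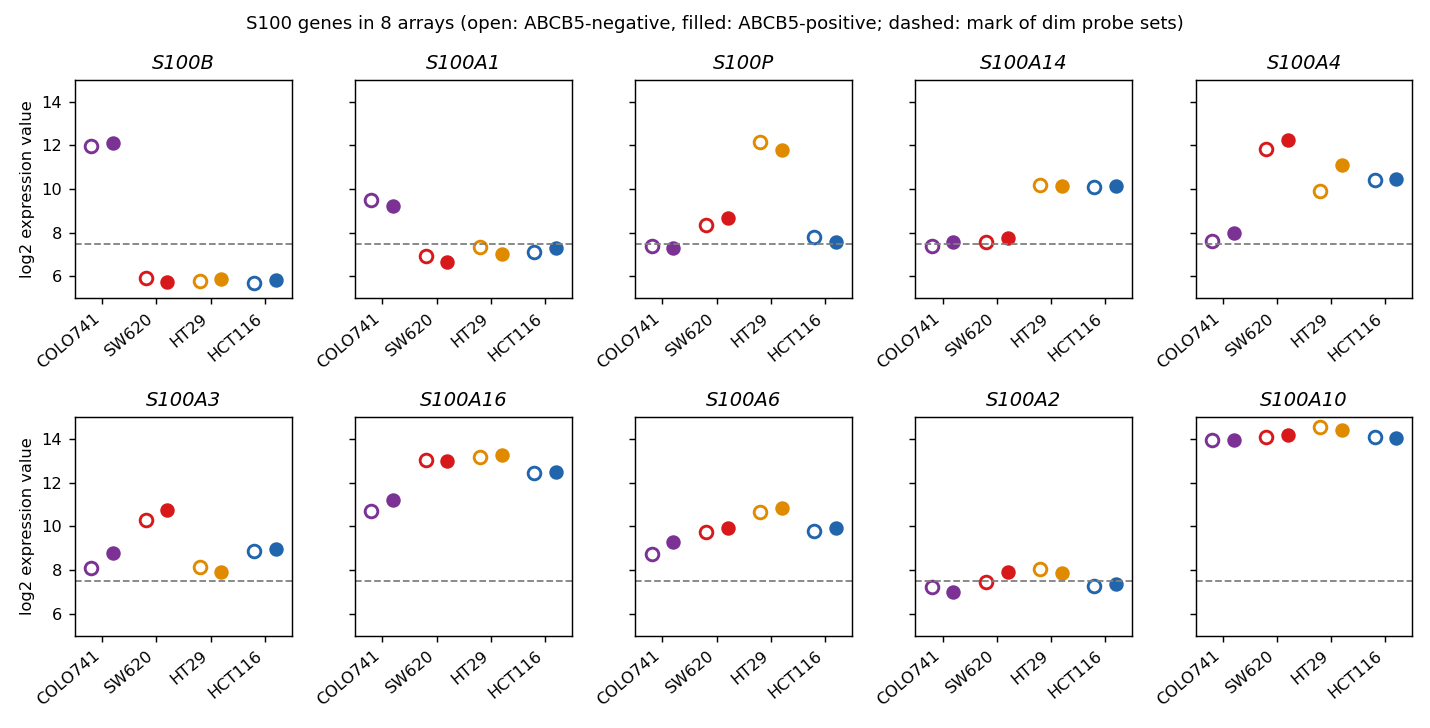
Log2 expression values (y axis) of the 10 S100 genes on each array, by cell line (x axis), with open circles for ABCB5-negative and filled circles for ABCB5-positive arrays, and a dashed line at 7.50, the mark of dim probe sets. The arrays of a line lie farthest apart for S100A4 in HT29, where they read 9.90 and 11.10.

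S100B, a protein abundant in glia and melanocytes that binds p53 and, outside the cell, AGER, was bright in COLO741 and at background elsewhere. Probe set 8071036 read 11.96 on the ABCB5-negative and 12.09 on the ABCB5-positive COLO741 array. On the SW620 arrays it read 5.92 and 5.76, on the HT29 arrays 5.78 and 5.90, and on the HCT116 arrays 5.68 and 5.83, negative array first. The COLO741 arrays did not overlap with the other 6, all of which lay below the mark of dim probe sets. The measured difference of COLO741 from the mean of the other lines was 6.21 ± 0.09 (log2, SE), with an adjusted p of 1.55e-07 from limma. Since the other lines were at background, this is read as at least 23.0-fold higher, the ratio of the COLO741 mean to the mark of 7.50. The order among SW620, HT29 and HCT116 has no meaning for S100B, and their differences of 0.006 to 0.09 had adjusted p-values of 0.544 to 0.972.

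S100A1, which in muscle binds the calcium pump and release channel of the sarcoplasmic reticulum, was the other gene higher in COLO741. Probe set 7905581 read 9.52 and 9.21 on the COLO741 arrays, 6.93 and 6.65 in SW620, 7.34 and 7.02 in HT29 and 7.14 and 7.28 in HCT116. The 6 arrays of the other lines were all below 7.50, and neither COLO741 array overlapped with them. The S100A1 difference between COLO741 and the mean of the other lines was 2.30 ± 0.11 (log2, SE; adjusted p = 1.07e-05), read as at least 3.64-fold. The gene for S100A13 overlaps that of S100A1 by 3606 bases on the other strand, and S100A13 was also higher in COLO741, by 0.44 ± 0.07 (adjusted p = 0.00267), with line means of 9.72 in COLO741 and 9.22 to 9.32 elsewhere.

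**Figure D2:**
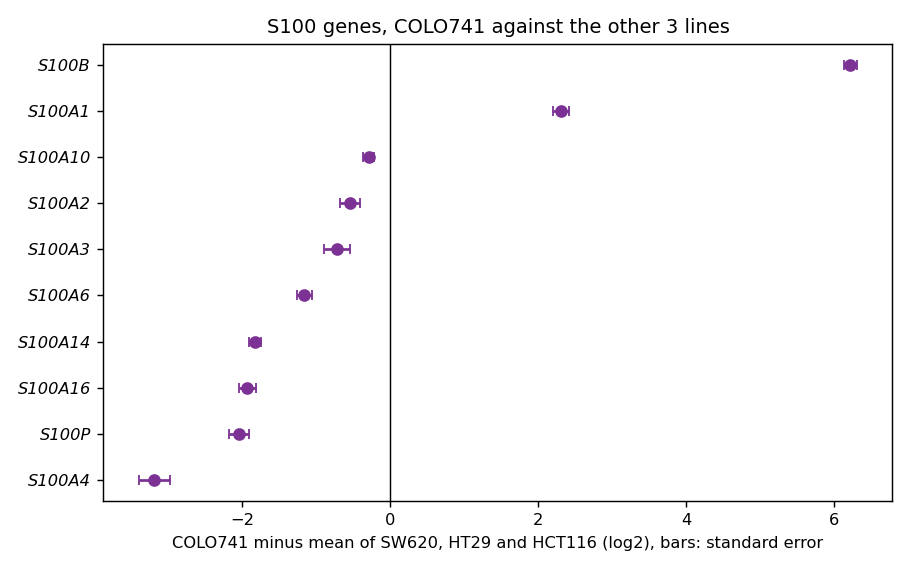
Difference between COLO741 and the mean of SW620, HT29 and HCT116 (x axis, log2) for the 10 S100 genes (y axis), with bars for the standard error from limma. S100B lies at 6.21 and S100A1 at 2.30, and the other 8 lie between -3.18 for S100A4 and -0.29 for S100A10. Of these 8, only S100A4, S100A6 and S100A16 were called lower than each of the other lines taken singly.

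S100P, first described in placenta and known to bind the membrane linker ezrin, was highest in HT29. Probe set 8093950 read 12.15 and 11.79 on the HT29 arrays, 8.35 and 8.69 in SW620, 7.79 and 7.57 in HCT116 and 7.39 and 7.30 in COLO741. The lines came in that order without overlap between HT29 and any other. HT29 exceeded SW620 by 3.45 ± 0.17 (log2, SE; adjusted p = 1.88e-05), a 10.9-fold difference, and SW620 exceeded HCT116 by 0.84 (adjusted p = 0.00849), a difference of 0.75 (adjusted p = 0.0776) without the HCT116 ABCB5-positive array and of 0.55 (adjusted p = 0.0326) without the SW620 ABCB5-positive array. HCT116 and COLO741 did not differ beyond the spread in S100P, by 0.33 ± 0.17 (adjusted p = 0.152), though the adjusted p was 0.0444 without either SW620 array. HT29 was at least 22.1-fold above COLO741 in S100P, where both COLO741 arrays were below the mark of dim probe sets. The HCT116 arrays lay next to that mark, so the differences from HCT116 are those of the measured values.

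S100A14, a member found mainly in epithelia, split the lines into pairs. Probe set 7920297 read 10.17 and 10.12 on the HT29 arrays, 10.09 and 10.12 in HCT116, but 7.59 and 7.75 in SW620 and 7.40 and 7.57 in COLO741. The 4 low arrays lay next to the mark of dim probe sets, so that the folds given here are those of the measured values. HCT116 exceeded SW620 by 2.43 ± 0.09 (log2, SE; adjusted p = 1.00e-05), or 5.40-fold. HT29 and HCT116 differed by 0.04 ± 0.09 in S100A14 (adjusted p = 0.781) and SW620 and COLO741 by 0.19 ± 0.09 (adjusted p = 0.155), neither beyond the spread.

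S100A16, a widely expressed relative whose gene lies beside that of S100A14, was not dim in any line. Probe set 7920291 read 13.19 and 13.25 on the HT29 arrays, 13.018 and 13.002 in SW620, 12.42 and 12.48 in HCT116 and 10.71 and 11.22 in COLO741. COLO741 was below all others, 1.48 ± 0.14 under HCT116 (log2, SE; adjusted p = 2.94e-04), or 2.80-fold. HT29 and SW620 did not differ beyond the spread in S100A16, by 0.21 ± 0.14 (adjusted p = 0.294), whereas SW620 exceeded HCT116 by 0.56 (adjusted p = 0.0219), a call lost without either array of SW620 or either of HCT116 (adjusted p = 0.0523 to 0.150). SW620 was thus high in S100A16 and low in the neighbouring S100A14.

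S100A4, known as metastasin and as a binding partner of nonmuscle myosin, was highest in SW620 and lowest in COLO741. Probe set 7920271 read 11.85 and 12.23 on the SW620 arrays, 9.90 and 11.10 in HT29, 10.41 and 10.47 in HCT116 and 7.63 and 7.99 in COLO741. No array of another line reached the SW620 values or fell to the COLO741 values. SW620 exceeded HT29 by 1.54 ± 0.25 (log2, SE; adjusted p = 0.00329), or 2.91-fold, with an adjusted p of 0.0651 by ordinary least squares. HCT116 exceeded COLO741 by 2.63 ± 0.25 (adjusted p = 2.77e-04), or 6.19-fold, and SW620 exceeded COLO741 18.8-fold. The COLO741 arrays lay not far above the mark of dim probe sets, so the folds against COLO741 are those of the measured values. HT29 and HCT116 did not differ beyond the spread in S100A4, by 0.06 ± 0.25 (adjusted p = 0.890).

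S100A3, a cysteine-rich member best known from the hair cuticle, was also highest in SW620. Probe set 7920278 read 10.31 and 10.76 on the SW620 arrays, 8.85 and 8.94 in HCT116, 8.07 and 8.80 in COLO741 and 8.15 and 7.92 in HT29. SW620 exceeded HCT116 by 1.64 ± 0.22 (log2, SE; adjusted p = 0.00158), or 3.11-fold. The lower neighbours did not pass the test: HCT116 and COLO741 differed by 0.46 ± 0.22 (adjusted p = 0.136) and COLO741 and HT29 by 0.40 ± 0.22 (adjusted p = 0.188). Both turned on single arrays. COLO741 minus HCT116 was -0.77 (adjusted p = 0.0352) without the COLO741 ABCB5-positive array and -0.15 without the negative one. COLO741 minus HT29 was 0.71 (adjusted p = 0.0459) without the COLO741 ABCB5-negative array and 0.73 (adjusted p = 0.0463) without the HT29 ABCB5-negative array, but 0.09 and 0.07 without the positive ones. S100A3 was 0.72 lower in COLO741 than in the mean of the other lines (adjusted p = 0.0150), but 0.40 lower (adjusted p = 0.153) without the COLO741 ABCB5-negative array.

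S100A6, also called calcyclin, is known to bind CACYBP. Probe set 7920258 read 10.67 and 10.86 on the HT29 arrays, 9.81 and 9.92 in HCT116, 9.76 and 9.92 in SW620 and 8.73 and 9.28 in COLO741. HT29 was above and COLO741 below the other lines without overlap. HT29 exceeded HCT116 by 0.90 ± 0.13 (log2, SE; adjusted p = 0.00180), or 1.86-fold, and SW620 exceeded COLO741 by 0.84 ± 0.13 (adjusted p = 0.00190), while HCT116 and SW620 differed by 0.02 ± 0.13 (adjusted p = 0.895).

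S100A2, a nuclear member of squamous epithelia that binds p53, stayed near background. Probe set 7920285 read 8.03 and 7.88 on the HT29 arrays, 7.47 and 7.92 in SW620, 7.25 and 7.38 in HCT116 and 7.21 and 7.01 in COLO741. Only 3 of the 8 arrays passed the mark of dim probe sets, and no neighbouring lines differed beyond the spread, with adjusted p-values of 0.115 to 0.362. SW620 minus HCT116 was 0.65 (adjusted p = 0.0270) without the SW620 ABCB5-negative array and 0.12 without the positive one. COLO741 minus HT29 was -0.84 ± 0.17 for S100A2 (log2, SE; adjusted p = 0.00609) and -0.71 (adjusted p = 0.0552) without the HT29 ABCB5-negative array. Against the mean of the other lines COLO741 was at -0.55 ± 0.14 (adjusted p = 0.0149), and at -0.37 (adjusted p = 0.145) without the COLO741 ABCB5-positive array.

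S100A10, which does not bind calcium and forms a tetramer with annexin A2 at the cell membrane, varied least. Probe set 7920123 read 14.55 and 14.42 on the HT29 arrays, 14.09 and 14.16 in SW620, 14.09 and 14.05 in HCT116 and 13.93 and 13.94 in COLO741. The highest value of any probe set was 15.2, and whether differences are narrowed so near the top of the scale was not tested. HT29 exceeded SW620 by 0.36 ± 0.09 (log2, SE; adjusted p = 0.0202), or 1.28-fold, a call lost without either HT29 array or without the SW620 ABCB5-negative array (adjusted p = 0.0584 to 0.170). The 3 lower lines did not differ from their neighbours beyond the spread (adjusted p = 0.659 and 0.282). The S100A10 difference of -0.29 between COLO741 and the mean of the others had an adjusted p of 0.0169, but 0.0651 after quantile normalization, and 0.0511 to 0.0852 without either COLO741 array or without the HT29 ABCB5-negative array.

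In pairs of lines, 8 of the 10 S100 genes, all but S100A10 and S100A14, differed between COLO741 and SW620, where 47 percent of all genes did. Between COLO741 and HT29 9 differed, all but S100A3, where 45.3 percent of all genes did. Between COLO741 and HCT116 S100A1, S100A4, S100A6, S100A14, S100A16 and S100B differed, 6 in all, where 45.9 percent of all genes did. Between SW620 and HT29 it was S100A3, S100A4, S100A6, S100A10, S100A14 and S100P, 6 beside 40 percent of all genes. Between SW620 and HCT116 it was S100A1, S100A3, S100A4, S100A14, S100A16 and S100P, 6 beside 38.9 percent. HT29 and HCT116 differed in S100A2, S100A3, S100A6, S100A10, S100A16 and S100P, 6 beside 39 percent. With 10 genes, a count of 6 is not read as a result about the family beside these shares. The count for SW620 and HCT116 holds S100A1, at background in both lines, and was 3 without the HCT116 ABCB5-positive array. The count for HT29 and HCT116 was 3 without either ABCB5-negative array of these lines and 2 without the HCT116 ABCB5-positive array.

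The stretch of 250 bases before the start site is shown for those 4 of the 5 widest-ranging genes that have a sequence, S100A1 for COLO741, S100P for HT29, S100A4 for SW620 and S100A14 for the pair of HT29 and HCT116. S100B had no promoter sequence among the reference sequences used. Sequences are from RefSeq on build GRCh38.p14, read 5′ to 3′ on the strand of the gene: S100A1 at chr1:153628184-153628433 on the plus strand, S100A4 at chr1:153545807-153546056 and S100A14 at chr1:153616326-153616575 on the minus strand, and S100P at chr4:6693628-6693877 on the plus strand. Capitals mark CANNTG, the E-box core, and TATAAA, the TATA box core, both searched on both strands, with no overlap of the motifs in these sequences.
S100A1: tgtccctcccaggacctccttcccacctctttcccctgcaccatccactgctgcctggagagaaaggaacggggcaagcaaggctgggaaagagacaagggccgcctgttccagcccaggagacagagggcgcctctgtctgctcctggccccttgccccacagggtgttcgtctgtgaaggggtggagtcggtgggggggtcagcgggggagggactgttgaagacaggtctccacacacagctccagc
S100A4: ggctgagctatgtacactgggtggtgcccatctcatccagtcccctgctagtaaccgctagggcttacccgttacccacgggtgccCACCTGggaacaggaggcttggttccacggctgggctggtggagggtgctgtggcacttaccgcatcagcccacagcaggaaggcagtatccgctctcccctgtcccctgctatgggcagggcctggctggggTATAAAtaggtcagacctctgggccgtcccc
S100A14: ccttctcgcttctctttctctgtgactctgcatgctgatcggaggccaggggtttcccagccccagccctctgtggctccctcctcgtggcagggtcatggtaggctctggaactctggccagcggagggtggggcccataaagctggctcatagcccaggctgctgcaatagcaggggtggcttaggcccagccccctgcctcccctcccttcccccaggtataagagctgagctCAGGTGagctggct
S100P: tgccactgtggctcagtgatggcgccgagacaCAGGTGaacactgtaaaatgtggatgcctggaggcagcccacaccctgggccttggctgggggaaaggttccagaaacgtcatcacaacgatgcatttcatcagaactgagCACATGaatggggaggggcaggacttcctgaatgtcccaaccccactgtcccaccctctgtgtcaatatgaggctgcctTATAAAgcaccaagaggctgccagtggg
TATAAA was found 31 bases before the start of S100A4 and 28 bases before the start of S100P, and in 11.1 percent of 27303 promoters of the same length. CANNTG was found at 2 places in S100P, 1 in S100A4 and 1 in S100A14, at 0 in S100A1, and in 62.2 percent of those promoters. S100A4 and S100P were the only ones of the 9 S100 genes with a promoter sequence to hold TATAAA. The CG pairs numbered 6 in S100A1, 7 in S100A4, 4 in S100A14 and 4 in S100P, below the median of 11 for those promoters, and 24 each in S100A6 and S100A10. These matches describe letters and are not binding sites.

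The 8 members on chromosome 1 lie among 16 protein-coding S100A genes, in a stretch of 63 protein-coding genes from S100A10 to S100A1, while S100P lies on chromosome 4 and S100B on chromosome 21. S100A6, S100A4, S100A3, S100A2, S100A16 and S100A14 follow one another in that order, with S100A5 between S100A6 and S100A4. The highest line was HT29 for S100A6, SW620 for S100A4 and S100A3, and HT29 for S100A2, S100A16 and S100A14, but HT29 did not pass the test against the next line for S100A2 (adjusted p = 0.263), S100A16 (0.294) or S100A14 (0.781). Of the 5 protein-coding genes on either side of the stretch, 8 of 10 were tested, and 2 of them, CHTOP and ILF2, were lower in COLO741 than in the mean of the other lines, where 26 percent of all genes were, with differences over the 8 from -0.54 to 0.20.

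Genes most like the 4 widest-ranging members were sought by the root mean square difference of gene-centred log2 values over the 8 arrays. All genes share these arrays, so likeness is a description only. S100B was nearest to PDE3A, a phosphodiesterase, at 0.15, to SPART at 0.16 and to ELOVL2, a fatty acid elongase, at 0.19. PDE3A had a line mean of 12.6 in COLO741 and of 6.36 to 6.60 in the other lines. S100P was nearest to ABCC3, an organic anion efflux transporter, at 0.29, to the drug-metabolising enzyme CYP3A5 at 0.32 and to BGN, a small proteoglycan, at 0.35. ABCC3 had line means of 12.1 in HT29 and of 7.62 to 8.61 elsewhere. S100A4 was nearest to the growth factor gene FGF19 at 0.32, to THBS1, the matrix glycoprotein thrombospondin-1, at 0.39 and to ZC3HAV1L at 0.42. S100A14 was nearest to DHRS3, a retinal reductase, at 0.16, to the potassium channel gene KCNK1 at 0.18 and to SH3RF2 at 0.18. Within a root mean square difference of 0.5 lay 29 genes for S100B, 19 for S100P, 8 for S100A4 and 31 for S100A14.

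The other 11 S100 genes on the array were mostly dim. S100A11, a partner of annexin A1, and S100A13, which helps to export growth factors, were above the mark of dim probe sets on all 8 arrays, S100A8 on 1 array and S100A5, S100A7, S100A7A, S100A7L2, S100A9, S100A12, S100G and S100Z on 0. S100A11 had line means of 13.95 in HT29, 13.55 in COLO741, 13.50 in SW620 and 13.19 in HCT116, and HT29 exceeded HCT116 by 0.76 ± 0.08 (log2, SE; adjusted p = 6.32e-04). S100A11 in COLO741 differed from the mean of the other lines by -0.002 ± 0.07 (adjusted p = 0.983). Of the 11, 7 passed the filter on dim genes, and 4 of those 7 (S100A5, S100A7, S100A11 and S100A13, the first pair below the mark in every line) differed between the lines, where 67.2 percent of all genes did.

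Of 11 receptors of S100 proteins 10 were tested, and 8 differed between the lines, where 67.2 percent of all genes did. TLR4, the receptor of secreted S100A8 and S100A9, had the widest range, with line means of 6.17 in HCT116, 8.92 in HT29, 9.07 in SW620 and 10.52 in COLO741. EGFR, the epidermal growth factor receptor, had line means of 11.1 in HT29, 10.6 in HCT116, 8.62 in COLO741 and 6.98 in SW620. The adhesion receptor ALCAM had line means of 12.3 in HCT116, 11.4 in HT29, 8.76 in SW620 and 8.55 in COLO741. The fibroblast growth factor receptor FGFR1 had line means of 10.8 in COLO741 and 7.23 in HT29. TLR4 in HCT116, EGFR in SW620 and FGFR1 in HT29 lay below the mark of dim probe sets on both arrays, so these lowest values are background. AGER, the receptor of several S100 proteins, named here for that role after its values were seen, stayed between 7.87 and 8.15.

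Of 31 binding partners, 29 were tested and 21 differed between the lines, where 67.2 percent of all genes did. ANXA2, annexin A2, the partner of S100A10, read 10.3 and 10.5 on the COLO741 arrays, 13.1 and 13.2 in SW620, 13.8 and 13.8 in HT29 and 13.5 and 13.6 in HCT116. ANXA2 thus differed by -3.14 ± 0.08 between COLO741 and the mean of the other lines (log2, SE; adjusted p = 7.80e-07), and S100A10 by -0.29 ± 0.07. PLAT, tissue plasminogen activator, a ligand of the S100A10 tetramer, went the other way and was 4.58 ± 0.11 higher in COLO741 (adjusted p = 5.85e-07). ANXA6, another annexin, had line means of 13.1 in COLO741, 12.4 in HCT116, 9.07 in HT29 and 8.94 in SW620, and PGM1, phosphoglucomutase, of 12.5 in COLO741 and 9.89 in HT29. Of the 29 partners, 9 were higher and 6 lower in COLO741, where 23.7 and 26 percent of all genes were.

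**Figure D3:**
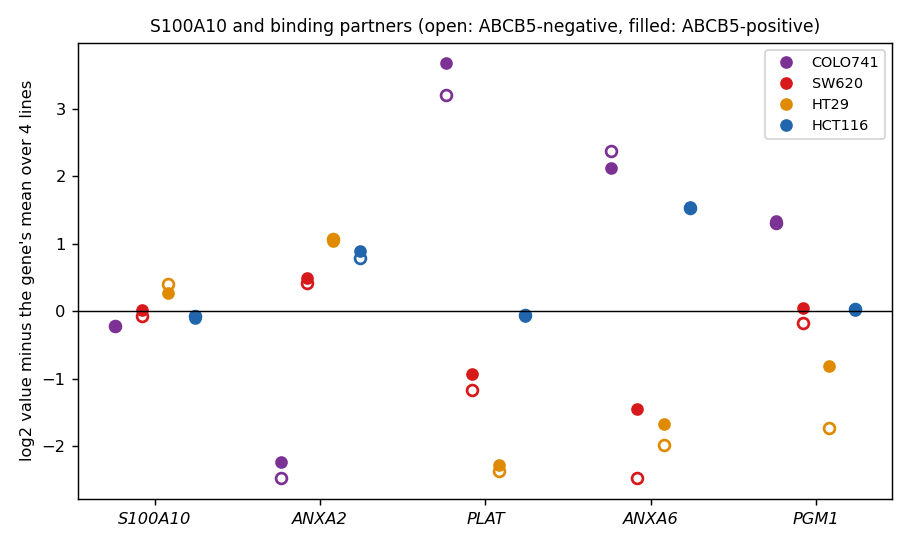
Log2 values of S100A10 and of the 4 binding partners with the widest ranges, each minus the gene's mean over the 4 line means (y axis), with open circles for ABCB5-negative and filled circles for ABCB5-positive arrays in the colours of the lines. S100A10 stays near 0, with a range of line means of 0.55, while ANXA2 spans 3.41, with COLO741 at the bottom, and PLAT spans 5.76, with COLO741 at the top.

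The second question was whether the S100 genes differ between ABCB5-positive and ABCB5-negative cells. By limma with the cell line as a block, 0 of the 10 passed an adjusted p of 0.05, where 0 percent of all 16910 genes did, and 2, S100A4 and S100A6, had an unadjusted p under 0.05, where 4.4 percent of all genes had. S100A4 was higher in the ABCB5-positive array of all 4 lines, by 0.06 in HCT116, 0.38 in SW620, 1.20 in HT29 and 0.36 in COLO741, with a mean of 0.50 ± 0.49 (log2, SD, n = 4) and a 95% interval of 0.07 to 0.92 (adjusted p = 0.898). Its HT29 arrays were 2.30-fold apart, the largest fold of any member in any line, and without HT29 the mean difference of S100A4 was 0.27. S100A6 was also higher in all 4, by 0.11 in HCT116, 0.16 in SW620, 0.19 in HT29 and 0.55 in COLO741, with a mean of 0.25 ± 0.20 (SD, n = 4) and an interval of 0.04 to 0.47 (adjusted p = 0.898), and a mean of 0.15 without COLO741. Of all genes, 6.39 percent were higher in the positive array of all 4 lines. The intervals were built from limma's standard error, 0.18 for S100A4 and 0.09 for S100A6, and not from the SD printed beside them. They were not adjusted for the number of genes tested.

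For the other 8 the sign varied between lines, and each interval included 0. S100A3 measured 0.09 in HCT116, 0.45 in SW620, -0.24 in HT29 and 0.73 in COLO741, with a mean of 0.26 and an interval of -0.11 to 0.63. S100A1 measured 0.14 in HCT116, -0.28 in SW620, -0.32 in HT29 and -0.31 in COLO741, with a mean of -0.19 and an interval of -0.42 to 0.04. Its arrays in SW620, HT29 and HCT116 were all below the mark of dim probe sets. Only its COLO741 difference was therefore measured above background. S100A16 measured 0.52 in COLO741 and -0.02 to 0.05 in the other lines, with a mean of 0.15 that became 0.03 without COLO741. On the same COLO741 arrays 4 of 13 melanocyte genes were lower by 1.5-fold or more in the positive array. They were TRPM1 at -1.02, GPR143 at -0.96, OCA2 at -0.95 and TYRP1 at -0.61. Of all genes, 5.62 percent differed by as much there in either direction. The melanocyte list was written with earlier results of these data known, so its excess is a description only. Of the 13, 4 were higher, up to 0.53 for PAX3. The log2 summed level of the 13 was 16.45 on the negative and 16.18 on the positive array. EPCAM, below the mark of dim probe sets on both, was at -1.06. The part of these marker differences in the COLO741 differences of S100A16, S100A6 and S100A3 was not tested. S100P measured 0.34 in SW620 and -0.36 to -0.09 elsewhere, with an interval of -0.37 to 0.20, and S100A2 measured 0.45 in SW620 and -0.20 to 0.13 elsewhere, with an interval of -0.22 to 0.34. For S100B, which only COLO741 measured above background, the COLO741 difference was 0.14. The narrowest intervals were those of S100A10, at -0.18 to 0.13, and S100A14, at -0.08 to 0.24. In COLO741 the ABCB5 transcript ran against the labels, so that the differences named for it are those between the arrays as labelled.

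**Figure D4:**
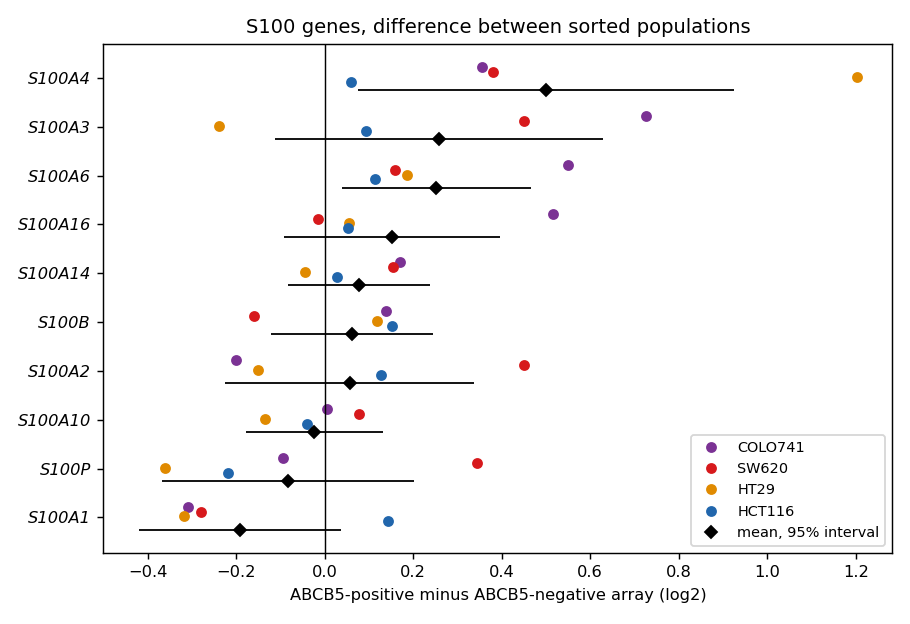
Difference between the ABCB5-positive and the ABCB5-negative array (x axis, log2) for the 10 S100 genes (y axis), with a coloured point for each line and a diamond and bar for the mean and its 95% interval from limma. The 4 lines lie right of 0 for S100A4 and S100A6, and the HT29 point of S100A4 at 1.20 stands farthest from 0.

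Within single lines there was 1 array of each population and no test. In COLO741 1 of the 10 genes differed 1.5-fold or more, S100A3 at 1.65-fold, where 5.62 percent of all genes did. In HT29 the only gene was S100A4, where 1.62 percent of all genes differed so. In SW620 the count was 0, where 2.42 percent of all genes differed, and in HCT116 0, where 0.432 percent did. The median of the 10 differences was 0.08 in HCT116, 0.16 in SW620, -0.09 in HT29 and 0.15 in COLO741, beside -0.01, 0.02, -0.005 and -0.02 for all genes in the same order of lines.

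The SW620 ABCB5-positive array stood apart in 2 S100 genes of phagocytes, S100A8 and S100A12. S100A8, which with S100A9 forms calprotectin, the main calcium-binding protein of neutrophils and monocytes, read 7.69 on the SW620 ABCB5-positive array and 5.40 to 5.63 on the other 7. S100A12, a relative expressed in neutrophils, read 7.16 on that array, below the mark of dim probe sets, and 5.20 to 5.76 on the others. S100A9 itself read 7.16 to 7.47 on all 8 arrays and 7.37 on that array. Of 14 phagocyte genes, a list that holds S100A8 and S100A9, all 14 were higher on the SW620 positive than on the negative array. Of these, 8 were higher by 1.5-fold or more, where 2.42 percent of all genes differed by as much in either direction. The median of the 14 was 0.85, beside 0.02 for all genes, with up to 3.22 for CYBB, the oxidase subunit of phagocytes. The phagocyte list was written with earlier results of these data known, so its excess over all genes is a description only. Colon epithelial genes differed on the same arrays too, with 13 of 17 higher on the SW620 positive array, 2 of them by 1.5-fold or more (CDH1 by 1.48 and TSPAN8 by 1.43), a median of 0.22 and a log2 summed level of 16.21 on the negative and 16.38 on the positive array. In the other lines 5 to 8 of the 14 phagocyte genes were higher, with medians of -0.05 to 0.01. The log2 of the summed linear level of the list was 11.72 on the negative and 12.82 on the positive SW620 array, and 11.85 to 14.65 on the arrays of the other lines, where LYZ, lysozyme, read 14.27 to 14.42 in HT29 and CD68, a lysosomal protein, 12.17 to 13.03 in COLO741. The defining leukocyte marker PTPRC read 6.96 on the SW620 positive array, below the mark, and 4.82 to 5.11 on the other arrays. S100A4, S100A6 and S100A10 are also expressed by phagocytes, and on the SW620 arrays they differed by 0.38, 0.16 and 0.08; the part of such cells in these differences was not tested. Without SW620 the mean differences over the other 3 lines were 0.54 for S100A4, 0.28 for S100A6 and -0.06 for S100A10.

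**Figure D5:**
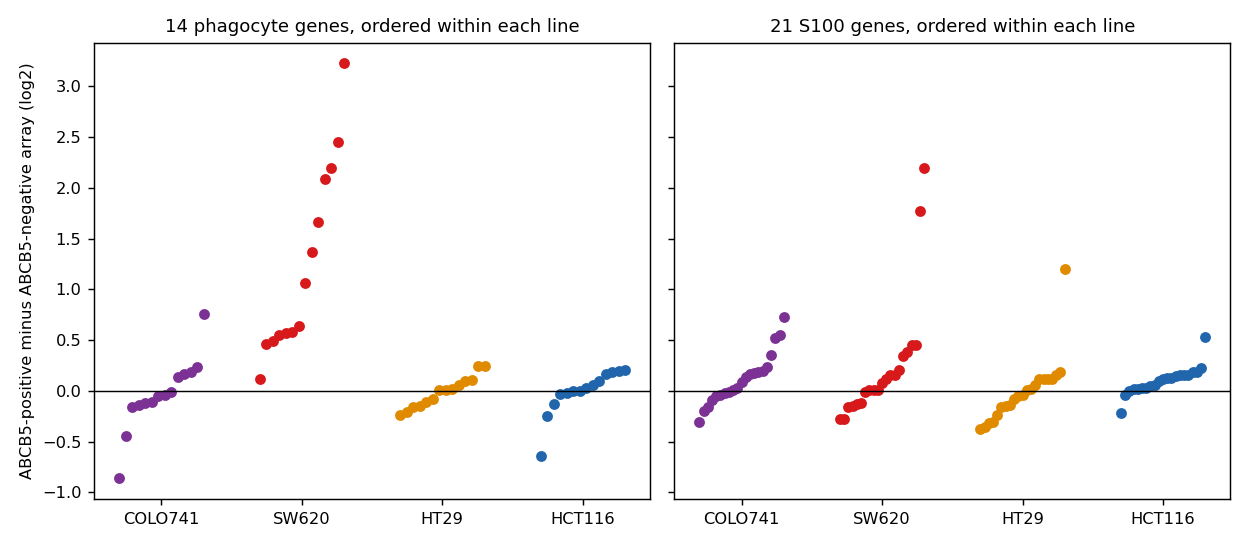
Difference between the ABCB5-positive and the ABCB5-negative array (y axis, log2) within each line (x axis) for 14 phagocyte genes and for 21 S100 genes, 1 point a gene, ordered by size within each line. In SW620 the phagocyte genes reach 3.22, and S100A8 at 2.19 and S100A12 at 1.77 are the topmost S100 points, while in HT29 the topmost point is S100A4 at 1.20.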

How the data were processed

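Expression was measured on 8 Affymetrix Human Gene 1.0 ST arrays, 1 for each sorted population of 4 lines. Per the submitters' processing notes, Affymetrix Expression Console produced the values. Its version, summarisation, background correction and any scaling between arrays were not given in the sources used here. Log2 values were deposited by the authors, a scale read from their range of 2.99 to 15.2, for 33297 probe sets, with array medians of 8.03 to 8.10, and no further normalization was applied. The number of arrays limits the precision.

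Names came from the platform annotation, with symbols updated through gene identifiers of assembly GRCh38.p14. Of the probe sets 19460 named 1 gene, 1754 several and 12083 none. For each gene the probe set of highest mean was taken, and 1507 genes with a mean below the median of olfactory receptor probe sets (5.73) were left out. limma 3.58.1 in R 4.3.3 fitted all 16910 remaining genes (two-sided, Benjamini-Hochberg adjusted p under 0.05) with the line as a fixed block for the populations, and with the population as covariate for the lines. The pairing comes from the line labels, and after each group's mean was removed the 2 arrays sharing a line correlated at 0.932 to 0.963. A high correlation follows from the shared line itself and does not show a shared culture or sort. The code was tested on simulated data. All members are named, with the other S100 genes by their counts above background and F tests; of receptors and partners, the 4 with the widest range of line means are named, and of like genes the 3 nearest; AGER, CYBB and other markers were named outside this rule after their values were seen. Alternatives were the filter, the normalization, the choice of probe set, the variance model, the block and leaving out arrays or lines. The members, the lists and the split of COLO741 from the other lines were chosen with earlier results of these data known. Protein sequences are not analysed here.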

Additional observations from a re-analysis of the deposited data

Results flagged for a closer look

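Among 4 arrays of a population, or the 4 differences between populations, a value was marked where its gap to the nearest other value, divided by the whole range, exceeded Dixon's critical value for 4 values at the 95% level. Of 30 such groups over the 10 S100 genes 7 were marked. Chance marks about 1 in 20 groups of independent, alike values, a rate that does not hold for this tally, since the 4 lines differ and both populations of a line repeat the same contrast. For S100B the COLO741 array stood apart among the ABCB5-positive arrays, with a ratio of 0.979, and among the ABCB5-negative arrays, with 0.961. The COLO741 array of S100A1 stood apart among the ABCB5-negative arrays, at 0.841. In the differences between populations, HCT116 stood apart for S100A1 at a ratio of 0.919 and SW620 for S100B at 0.898, both at background values. COLO741 stood apart for S100A16 at 0.868 and for S100A6 at 0.834. Whether the differences between populations vary between lines could not be tested with 1 pair of arrays a line.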

How the results depend on the processing

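For the populations, 0 of the 10 S100 genes passed under all 12 alternatives, including no replicate block (0 of 10 called, with 27 genes of all tested at an unadjusted p under 0.05) and the line as a random block (0 of 10 called, with 775). Ordinary least squares called 2 S100 genes between SW620 and HCT116 and 3 between HT29 and HCT116, against 6 and 6. Leaving out 1 array gave 3 to 5 calls for SW620 against HCT116 and 2 to 6 for HT29 against HCT116. Differences near 0, none of them called, changed sign. SW620 minus HCT116 for S100A6 was 0.013 with arrays centred on their medians, 0.038 without the SW620 ABCB5-positive array and 0.068 without the HCT116 ABCB5-negative array, in a range of -0.12 to 0.07. Population differences became -0.075 for S100A2 without SW620, and 0.014 for S100A10 and 0.011 for S100P without HT29, in ranges of -0.075 to 0.14, -0.06 to 0.01 and -0.22 to 0.01. Without the SW620 ABCB5-negative array, SW620 minus HT29 was 0.0048 for S100A2 and -0.14 for S100B, and SW620 minus HCT116 was -0.058 for S100B; without the SW620 ABCB5-positive array it was -0.011 for S100A10. Without the HT29 ABCB5-negative array, SW620 minus HT29 was -0.032 for S100B and HT29 minus HCT116 was -0.039 for S100A14. HT29 minus HCT116 was 0.057 for S100A1 and -0.41 for S100A4 without the HT29 ABCB5-positive array, and 0.20 and -0.24 without the HCT116 ABCB5-positive array. The cause was not tested. For S100B and S100A1 the difference between COLO741 and the mean of the other lines kept its call under all alternatives run for them, from 6.16 to 6.26 and from 2.23 to 2.38; the strict filter left S100B out. A call of S100A2 or S100A3 in the same comparison was lost with ordinary least squares (adjusted p = 0.103 and 0.115). The mean over probe sets changes no value of these genes, since each has 1.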

Other observations

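The fused-type S100 genes, large relatives of the skin barrier such as FLG, filaggrin, and RPTN, repetin, were near or below the mark of dim probe sets. TCHH, trichohyalin, read 7.46 to 7.74, at or above the mark on 6 of the 8 arrays, CRNN, cornulin, passed it on 1, and the other 4 on 0. Of 6 with a probe set of their own 5 passed the filter on dim genes, and 0 of the 5 differed between the lines by limma's F test at an adjusted p of 0.05, where 67.2 percent of all genes did, with 1 at an unadjusted p under 0.05. Between SW620 and HT29 1 of the 5 differed, where 40 percent of all genes did. FLG had line means of 6.34 to 6.63 and RPTN of 5.39 to 5.73. Of 10 fibroblast genes 9 were tested and 2 differed between the lines, where 67.2 percent of all genes did. LUM, the matrix proteoglycan lumican, had line means of 5.64 in HCT116, 7.84 in HT29, 10.41 in SW620 and 12.01 in COLO741, and FAP, a membrane protease, of 9.02 in COLO741 and 4.89 to 5.31 elsewhere, while COL1A1, COL1A2 and COL3A1 varied by at most 0.26 between line means.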
